A study of Mus musculus with 6 samples.

Results

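The 41 genes described here encode chaperones and folding enzymes of the endoplasmic reticulum (ER), the sensors and transcription factors of the unfolded protein response, the ER degradation machinery, the translocon, the signal peptidase and the COPII coat. They were chosen by symbol from a list made with earlier results of these data known. Each of the 41 matched 1 of the 25160 features in the deposited counts. All 41 passed the edgeR filter for low counts, as did 15925 features in all. The samples were the fourth mammary glands, with lymph nodes removed, of wild-type female FVB/N mice, an inbred strain, with 1 library per mouse. In the metformin group, 3 mice had been injected intraperitoneally with 200 mg/kg of metformin per day between 8 and 18 weeks of age. In the control group, 3 mice had received saline over the same 10 weeks. The comparison asks whether long-term metformin altered the transcripts of the secretory machinery in the gland. Whole tissue was sequenced, so fewer cells of a type and less RNA per cell cannot be told apart.

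Proteins that leave a cell or sit in its membranes enter the ER through the SEC61 channel as they are made, lose their signal peptide to the signal peptidase, and fold with the help of HSPA5 (BiP), lectin chaperones and protein disulfide isomerases. COPII vesicles then carry them towards the Golgi, and proteins that fail to fold are moved back to the cytosol and degraded. When unfolded proteins build up, the sensors IRE1 (Ern1), PERK (Eif2ak3) and ATF6 slow translation and raise transcription of the chaperone and degradation genes. Milk-secreting alveolar cells and antibody-secreting plasma cells are known for an enlarged ER.

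Library totals ranged between 35375365 and 47370885 counts, and no member had fewer than 213 counts in any library. Levels are given as CPM, counts scaled to the TMM-normalized library size. Log2 fold changes are metformin over control, and their standard error (SE) was derived from the F statistic of edgeR. Control 3 stood apart from the other controls. On the first principal component of all tested features, with 34.8% of the variance, control mice 1 and 2 scored -48.3 and -60.8 and control 3 scored 24.8, beside 14.8 to 35.9 in the metformin group. Summed CPM of 9 milk protein and secretion genes was 260.2, 329 and 829 in metformin-treated mice 1, 2 and 3 and 41429, 35682 and 616 in control mice 1, 2 and 3. Members whose call depended on control 3 are given with and without it, as are some whose direction did.

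The members spanned a wide range of levels. In FPKM, the deposited unit that accounts for transcript length, their mean over the 6 libraries was between 3.57 and 216. Calr, a lectin chaperone that binds calcium in the ER lumen, was the highest, at 187 ± 49.9 FPKM in metformin-treated and 245 ± 44.3 FPKM in control mice (SD, n = 3 each). Hspa5, the main ER HSP70 chaperone, followed at 129 ± 29.1 FPKM in metformin-treated and 170 ± 17.3 FPKM in control mice. The control libraries of Calr, at 213 to 296 FPKM, were above those of Hspa5, at 155 to 189 FPKM, whereas their metformin libraries overlapped, at 136 to 236 FPKM for Calr and 98.3 to 156 FPKM for Hspa5. Hsp90b1, P4hb and Pdia3 came next, and each overlapped its neighbour in the order in both groups. Xbp1, the transcription factor activated by IRE1, was the highest of the regulators, at 94.3 ± 12.2 FPKM in metformin-treated and 128 ± 33.7 FPKM in control mice. The 3 sensors were near the bottom. Atf6 was at 6.03 ± 0.990 FPKM in metformin-treated and 7.81 ± 1.33 FPKM in control mice, and Eif2ak3 at 4.23 ± 1.46 FPKM in metformin-treated and 5.63 ± 0.376 FPKM in control mice. Ern1 was the lowest member, at 3.74 ± 1.06 FPKM in metformin-treated and 3.41 ± 0.848 FPKM in control mice.

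**Figure D1:**
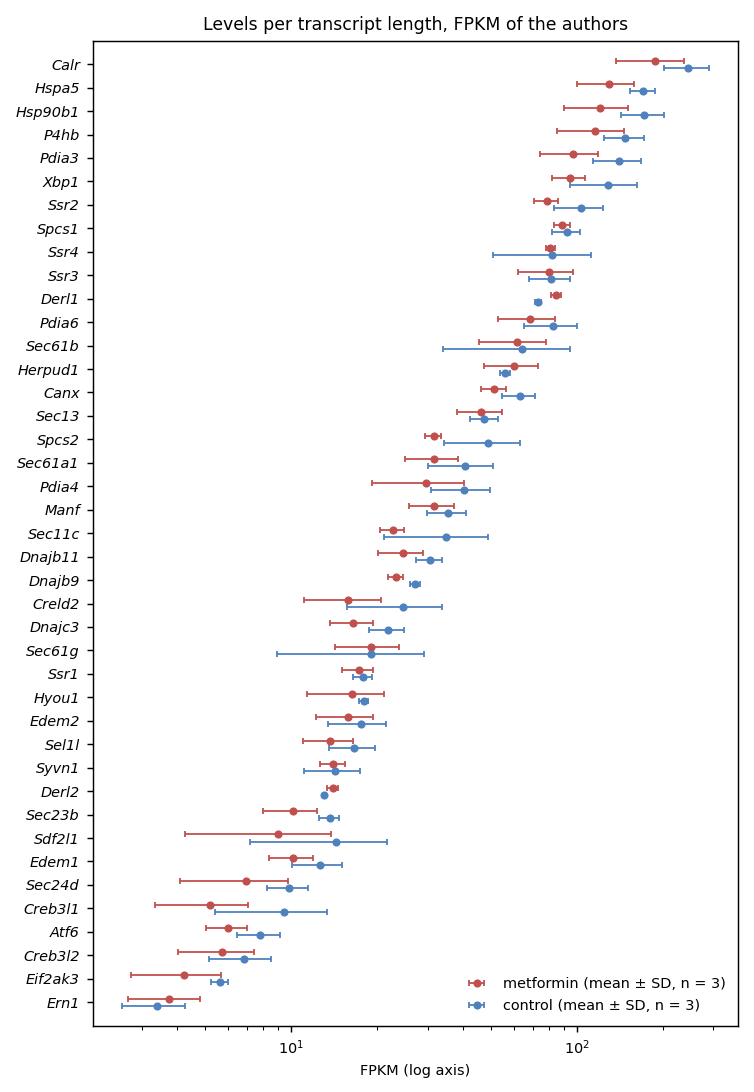
FPKM (log axis) of the 41 genes, ordered by their mean over the 6 libraries. Points and bars are the mean ± SD of 3 metformin-treated mice (red) and 3 control mice (blue). Calr is at the top and Ern1 at the bottom.

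Most members were lower in the metformin group, by small amounts. The log2 fold change was negative in 31 of 41 members and positive in 10, whereas it was negative in 48.7% of all 15925 tested features. Its median was -0.22 over the members and 0.01 over all features. The members lay between -0.82 (Creb3l1) and 0.29 (Derl1), which is 0.565 to 1.22 times the control level, with an SE between 0.13 and 0.51. With edgeR, 0 of the 41 had an adjusted p under 0.05 (the smallest was 0.661). Past the criteria of the study, at least a 1.5-fold difference and an unadjusted p under 0.01, were 0 members and 1.7% of all features. Here and below these criteria were applied to edgeR, whereas the study used DESeq2, with which 0 members met them too. At an unadjusted p under 0.05 edgeR called 1 member as lower, Sec23b, where 4.85% of all features were called lower, and 0 members as higher, where 2.68% were. DESeq2 also gave 0 members at an adjusted p under 0.05, with 3 lower at an unadjusted p under 0.05 (Hsp90b1, Pdia3 and Creb3l1), where 5.66% of all features were, and 200 features in all at an adjusted p under 0.05. For limma-voom these counts were 0 and 1 (Sec23b), where 4.12% of all features were lower at an unadjusted p under 0.05. The members' counts lie near these shares, and nothing is read from them.

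The libraries of the groups did not overlap in 8 members: Hspa5, Hsp90b1, Canx, Pdia3, Dnajb11, Dnajc3, Atf6 and Sec23b. All 8 were lower in the metformin group, and they are 19.5% of the members, beside 7.01% of all features. In the other direction there were 0 members, beside 6.24% of all features. The 41 genes were measured in the same 6 libraries, so they are not separate observations. Control 2 was the highest library for 24 of the 41 members and metformin-treated mouse 2 the lowest for 25. Without metformin-treated mouse 2, the median log2 fold change was -0.15 with 27 members lower, and without control 2 it was -0.15 with 30 lower.

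**Figure D2:**
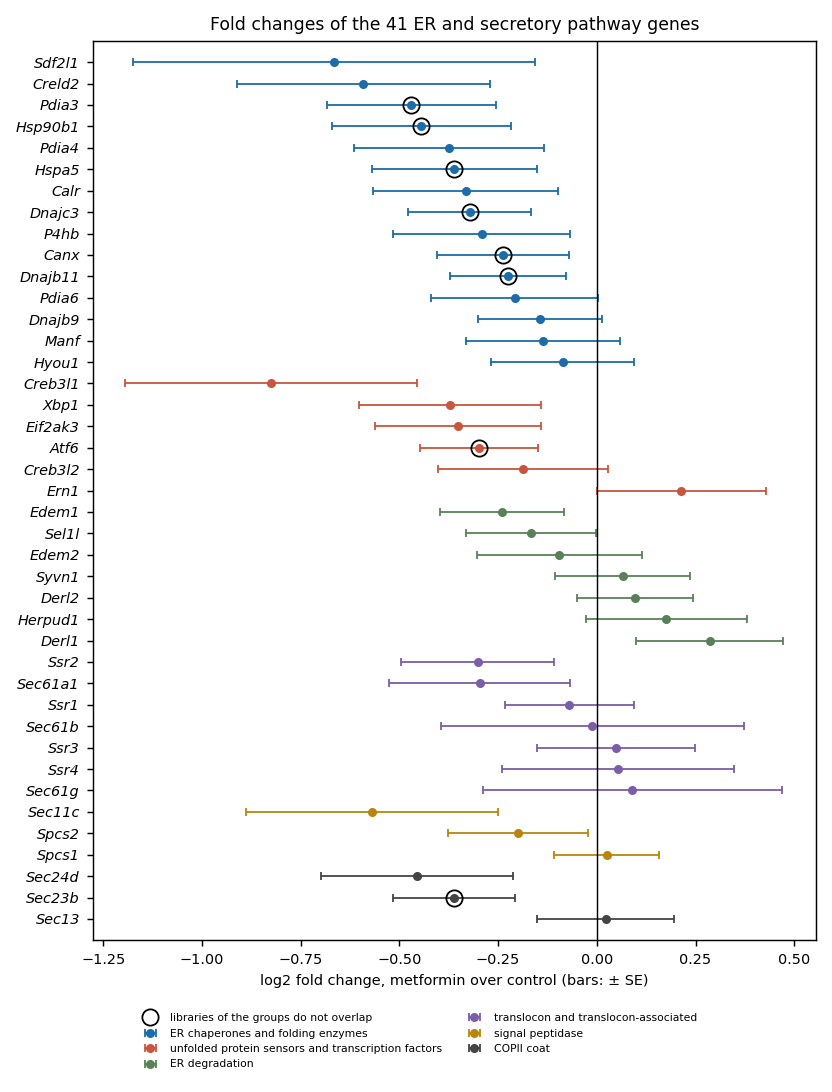
Log2 fold change (metformin over control) of each member, grouped by role and coloured as in the legend. Bars are ± SE, and open circles mark the 8 genes whose groups do not overlap. All 15 chaperones and folding enzymes lie left of 0, whereas 4 of the 7 degradation genes lie right of it.

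The 15 chaperones and folding enzymes were all lower in the metformin group, with a median log2 fold change of -0.32 and a range of -0.67 to -0.09. No overlap between the groups was seen in 6 of the 15, beside 7.01% of all features that were lower without overlap. At an unadjusted edgeR p under 0.05 there were 0 of the 15, where 4.85% of all features were lower. Their summed CPM was 2951, 2276 and 2999 in metformin-treated mice 1, 2 and 3 and 3285, 3884 and 3209 in control mice 1, 2 and 3. Every metformin library was thus below every control library. No p is given for such a sum, since the genes were listed with results of these data known.

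Hspa5 (ENSMUSG00000026864) lies on chromosome 2 between 34771970 and 34777547 (GRCm38). Metformin-treated mice 1, 2 and 3 had 437, 335 and 452 CPM, against 522, 566 and 485 CPM in control mice 1, 2 and 3. The highest metformin library was below the lowest control by less than the spread within either group (log2 fold change -0.36, SE 0.21, edgeR adjusted p = 0.746). Hsp90b1, or GRP94, the HSP90 chaperone of the ER lumen, was at 447, 295 and 378 CPM in the metformin group, against 453, 568 and 502 CPM in the control group (log2 fold change -0.44, SE 0.23, edgeR adjusted p = 0.724). Metformin-treated mouse 1 and control 1 were nearly equal, and 15.7% of the exonic bases of Hsp90b1 are shared with other annotated genes.

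Pdia3, a disulfide isomerase that works with the lectin chaperones, had one of the smallest p-values among the members. It was at 311, 244 and 325 CPM in the metformin group, against 364, 478 and 376 CPM in the control group (log2 fold change -0.47, SE 0.21, edgeR adjusted p = 0.681). Canx, calnexin, the membrane-bound lectin chaperone, was at 225, 214 and 235 CPM in the metformin group, against 247, 263 and 285 CPM in the control group (log2 fold change -0.24, SE 0.17). Its control 3 was the highest of the 6 libraries, unlike that of Hspa5.

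The DnaJ co-chaperones stimulate the ATPase of HSPA5. Dnajc3, or P58IPK, which also inhibits PERK, was at 105, 83.3 and 92.3 CPM in the metformin group, against 111, 116 and 124 CPM in the control group (log2 fold change -0.32, SE 0.16, edgeR adjusted p = 0.707). Dnajb11 was at 56.1, 45.9 and 54.0 CPM in the metformin group, against 60.3, 65.4 and 56.6 CPM in the control group (log2 fold change -0.22, SE 0.15), with metformin-treated mouse 1 just under control 3. Dnajb9 was at 60.2, 74.1 and 56.5 CPM in the metformin group, against 73.9, 69.4 and 67.5 CPM in the control group. It was the only chaperone that was highest in metformin-treated mouse 2.

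Creld2, an ER protein induced by ER stress, was at 29.1, 17.2 and 24.8 CPM in the metformin group, against 38.5, 47.5 and 21.0 CPM in the control group (log2 fold change -0.59, SE 0.32). Sdf2l1, which forms a complex with DNAJB11, was at 12.4, 5.12 and 14.7 CPM in the metformin group, against 20.2, 23.8 and 7.16 CPM in the control group (log2 fold change -0.67, SE 0.51). In both genes control mice 1 and 2 were above all metformin-treated mice and control 3 was within their range. Leaving out control 3 gave log2 fold changes of -0.86 for Creld2 (unadjusted p = 0.0104, edgeR adjusted p = 0.246) and -1.03 for Sdf2l1 (unadjusted p = 0.0438, edgeR adjusted p = 0.451). Leaving out control 2 instead gave -0.33 for Creld2 and -0.34 for Sdf2l1, and with control 3 as the only control they were 0.17 and 0.58. Calr was at 457, 361 and 522 CPM in the metformin group, against 539, 666 and 482 CPM in the control group, where metformin-treated mouse 3 lay among the controls (log2 fold change -0.33, SE 0.23). P4hb, a disulfide isomerase that is also a subunit of collagen prolyl hydroxylase, was at 388, 287 and 409 CPM in the metformin group, against 422, 511 and 394 CPM in the control group (log2 fold change -0.29, SE 0.22). The disulfide isomerases Pdia4 and Pdia6, the secreted ER factor Manf and the HSP70-like chaperone Hyou1 had log2 fold changes between -0.37 and -0.09, and their groups overlapped too.

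**Figure D3:**
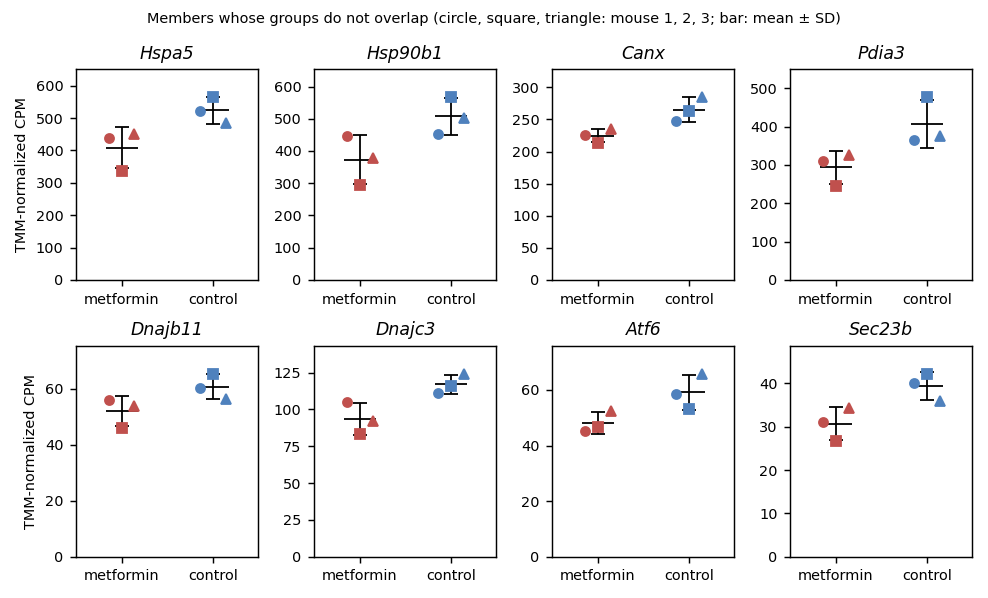
TMM-normalized CPM in each library of the 8 genes whose groups do not overlap, with metformin-treated mice on the left and control mice on the right. Black bars are the mean ± SD of 3 mice. The gap between the nearest libraries of the groups is small, as in Hsp90b1, at 447 CPM in metformin-treated mouse 1 and 453 CPM in control 1.

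Many chaperone promoters are known to carry the ER stress response element (ERSE), CCAAT, then 9 bases of any kind, then CCACG, which ATF6 binds together with NF-Y. It was searched on both strands in the 250 bases before annotated starts, in a set of RefSeq promoters (GRCm38.p6). The other 8 members were not in this set and were not searched, whereas 33 of the 41 were. An exact ERSE was found in 8 of these 33 members (24.2%), which were Calr, Canx, Creld2, Dnajc3, Hsp90b1, Hspa5, Pdia6 and Syvn1, and in 37 of all 32851 promoters (0.113%). Of the tested genes with a promoter, 19 of 11419 (0.166%) had an exact ERSE, the 8 members included. Since many chaperone promoters are known to carry the element, its higher share among the members was foreseeable and is not read as a result. The windows are shown as a description. Capitals mark the 2 outer parts of the element, which read CGTGG and ATTGG where the element lies on the other strand, and each line runs 5′ to 3′ on the strand of the gene.
Hspa5: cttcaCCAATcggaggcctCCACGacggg
Hsp90b1, distal: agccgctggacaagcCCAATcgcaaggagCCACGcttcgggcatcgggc
Hsp90b1, proximal: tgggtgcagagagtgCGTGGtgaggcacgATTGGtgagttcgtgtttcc
Canx: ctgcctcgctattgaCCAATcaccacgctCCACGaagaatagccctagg
Calr: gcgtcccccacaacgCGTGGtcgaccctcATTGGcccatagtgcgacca
Dnajc3: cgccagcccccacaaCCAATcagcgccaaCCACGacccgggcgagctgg
Creld2: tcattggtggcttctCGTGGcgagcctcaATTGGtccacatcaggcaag
Pdia6: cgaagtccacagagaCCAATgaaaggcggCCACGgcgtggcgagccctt
Syvn1: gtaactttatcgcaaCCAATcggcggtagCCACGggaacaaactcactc

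The window of Hspa5 is at chr2:34772020-34772048 on the plus strand, and its element spans bases -65 to -47 before the RefSeq start. It lies inside an exon of a longer Hspa5 transcript in GENCODE vM21 and is shown shorter for that reason, while the other windows shown overlap no exon annotated there. Hsp90b1 carried 2 elements in opposite orientation, with windows at chr10:86705623-86705671 and chr10:86705518-86705566 on the minus strand, at bases -212 to -194 and -107 to -89. The windows of Canx and Calr are at chr11:50325785-50325833 and chr8:84847060-84847108 on the minus strand. Those of Dnajc3, Creld2, Pdia6 and Syvn1 are at chr14:118937812-118937860, chr15:88819505-88819553, chr12:17266476-17266524 and chr19:6046517-6046565 on the plus strand.

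Of the 8 members with an ERSE, 7 were lower in the metformin group, with a median log2 fold change of -0.33 and a range of -0.59 to 0.07, and the groups did not overlap in 4 of them, all lower, beside the 7.01% of all features given above. Of the 25 members with a promoter but no exact ERSE, 17 were lower, with a median of -0.17 and no overlap in 3. Of the 8 members that were not searched, being absent from the promoter set, 7 were lower, with a median of -0.30 and no overlap in 1. All ERSE members but Syvn1 are chaperones or folding enzymes, and all 15 of that role were lower. The chaperones with a promoter but no exact ERSE, which were Pdia3, Pdia4, P4hb, Dnajb9, Dnajb11 and Sdf2l1, lay between -0.67 and -0.14. The ERSE split thus overlaps with role. The members with and without an ERSE were not tested against each other. Outside the members, 11 tested genes had an ERSE, and their log2 fold changes ran from -2.09 (Derl3) to 0.82 (Adcy3). A match is a description of the letters and not of a bound site. The variant ERSE-II, ATTGG, 1 base and CCACG, was found in 1 member, Herpud1, and in 0.0304% of all promoters. The element TGACGTGG, known as UPRE and bound by XBP1 and ATF6, was found in 1 member, Sec24d, and in 0.563% of all promoters.

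Of the 6 sensors and transcription factors, 5 were lower and 1 was higher in the metformin group, with a median log2 fold change of -0.32. Atf6, the membrane-bound factor that is cleaved in the Golgi under ER stress, was at 45.2, 46.6 and 52.6 CPM in the metformin group, against 58.4, 53.2 and 65.8 CPM in the control group (log2 fold change -0.30, SE 0.15, edgeR adjusted p = 0.716). The groups did not overlap, with metformin-treated mouse 3 just under control 2. Eif2ak3, the PERK kinase that phosphorylates eIF2α, was at 20.1, 15.6 and 26.4 CPM in the metformin group, against 26.9, 27.9 and 24.3 CPM in the control group (log2 fold change -0.35, SE 0.21). Only metformin-treated mouse 3 lay within the control range, and without it the log2 fold change was -0.56 (unadjusted p = 0.0257, edgeR adjusted p = 0.666), whereas without metformin-treated mouse 2 it was -0.18 (edgeR adjusted p = 0.972). Ern1, the IRE1 kinase and endonuclease, was the single regulator that was higher, at 31.6, 21.4 and 31.8 CPM in the metformin group, against 20.7, 23.3 and 29.0 CPM in the control group (log2 fold change 0.21, SE 0.21, edgeR adjusted p = 0.829).

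Xbp1 was at 237, 205 and 217 CPM in the metformin group, against 280, 360 and 211 CPM in the control group (log2 fold change -0.37, SE 0.23, edgeR adjusted p = 0.763). Gene counts do not separate the spliced, active form of Xbp1 from the unspliced form. Control 3 was within the metformin range, and without it the log2 fold change was -0.54 (unadjusted p = 0.0283, edgeR adjusted p = 0.379). Without control 2 it was -0.16, and with control 3 as the only control 0.05. Creb3l1, or OASIS, a membrane-bound factor known for collagen secretion in bone, had the lowest log2 fold change of the members. It was at 14.6, 10.8 and 18.8 CPM in the metformin group, against 29.5, 35.4 and 13.3 CPM in the control group (log2 fold change -0.82, SE 0.37, edgeR adjusted p = 0.678). Control mice 1 and 2 were above every metformin-treated mouse and control 3 was among them. Without control 3 the log2 fold change was -1.14 (SE 0.25), past the criteria of the study (unadjusted p = 0.00311, edgeR adjusted p = 0.140), whereas without control 2 it was -0.54, and with control 3 as the only control 0.14. Its relative Creb3l2 had a log2 fold change of -0.19 (SE 0.22).

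The 7 ER degradation genes did not share the direction of the chaperones, with 3 lower, 4 higher and a median log2 fold change of 0.07. Derl1, a subunit of the channel that moves misfolded proteins to the cytosol, had the highest log2 fold change of all members, at 306, 328 and 260 CPM in the metformin group, against 274, 233 and 225 CPM in the control group (log2 fold change 0.29, SE 0.19, edgeR adjusted p = 0.766). Metformin-treated mouse 3 was under control 1. Summed CPM of the 7 genes was 711, 759 and 706 in metformin-treated mice 1, 2 and 3 and 691, 685 and 658 in control mice 1, 2 and 3. Without Derl1 the sums overlapped, at 406, 431 and 447 CPM in the metformin group, against 417, 451 and 432 CPM in the control group. Without Herpud1 they overlapped too, at 614, 604 and 574 CPM in the metformin group, against 566, 578 and 549 CPM in the control group. Leaving out any 1 of the other 5 genes kept the sums apart. Herpud1, a membrane protein induced by ER stress, was at 97.5, 154 and 132 CPM in the metformin group, against 125, 107 and 108 CPM in the control group, with its lowest and its highest library both in the metformin group. For Edem1, which acts on misfolded glycoproteins, the log2 fold change was -0.24 (SE 0.16). For Sel1l, the partner of the ubiquitin ligase SYVN1, it was -0.17 (SE 0.16). Edem2, Syvn1 and Derl2 were between -0.10 and 0.10. Syvn1, counted as higher, was at 56.4, 51.6 and 52.1 CPM in the metformin group, against 46.1, 62.2 and 44.7 CPM in the control group. Its lowest library was control 3.

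**Figure D4:**
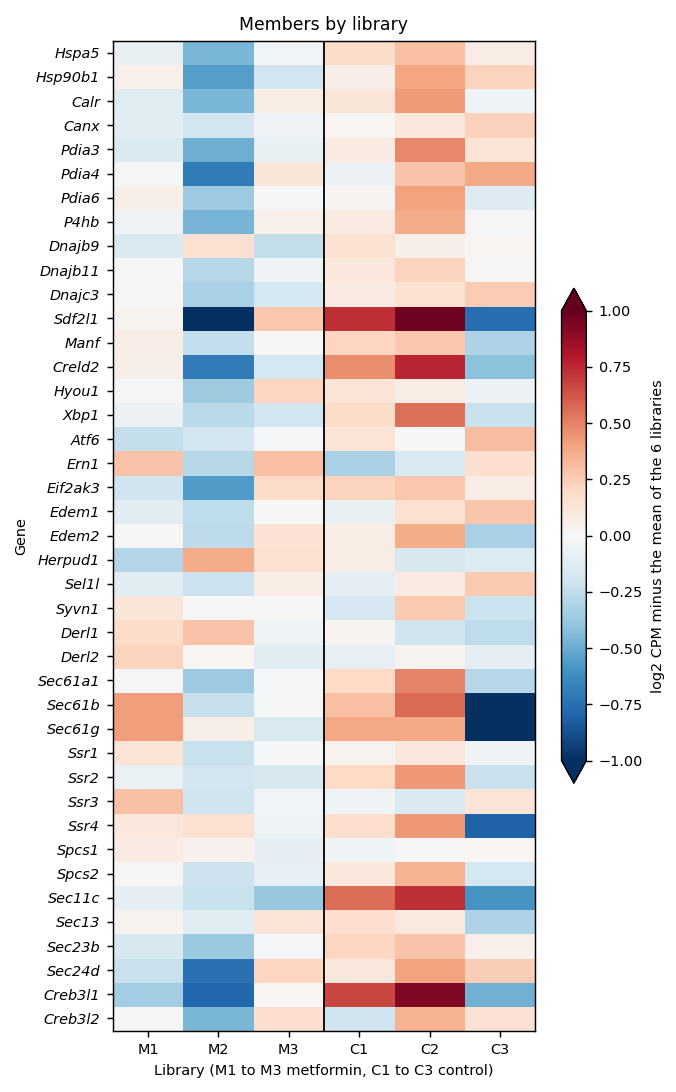
Log2 CPM of each member in each library, minus the mean of the 6 libraries (red above, blue below, scale limited to -1 and 1). M1 to M3 are metformin-treated mice and C1 to C3 control mice. C2 is the highest library for 24 members and M2 the lowest for 25, and Sec61b, Sec61g and Ssr4 are low in C3.

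In the translocon, 4 of 7 genes were lower and 3 higher, with a median log2 fold change of -0.01. At an unadjusted edgeR p under 0.05 there were 0 of the 7, where 4.85% of all features were lower and 2.68% higher. Sec61a1, the channel-forming subunit, and Ssr2, of the translocon-associated complex, had log2 fold changes of -0.30 (SE 0.23) and -0.30 (SE 0.19), and 12.8% of the exonic bases of Ssr2 are shared with the pseudogene Gm10704. The small subunit Sec61b was at 48.2, 30.7 and 35.8 CPM in the metformin group, against 44.4, 53.5 and 17.7 CPM in the control group. Sec61g, the other small subunit, was at 24.4, 19.0 and 16.4 CPM in the metformin group, against 23.8, 23.8 and 8.58 CPM in the control group. Ssr4 was at 72.8, 75.1 and 65.3 CPM in the metformin group, against 75.9, 91.0 and 38.5 CPM in the control group. In these 3 genes control 3 was the lowest of the 6 libraries, while control mice 1 and 2 lay within or above the metformin range. Their log2 fold changes were -0.01, 0.09 and 0.05, and without control 3 they were -0.35, -0.25 and -0.23. For Sec61a1 and Ssr2 the values without control 3 were -0.48 and -0.46, with unadjusted edgeR p under 0.05 and adjusted p of 0.436 and 0.333, and without control 2 they were -0.10 and -0.14. Ssr1 and Ssr3 had log2 fold changes of -0.07 (SE 0.16) and 0.05 (SE 0.20).

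Among the signal peptidase genes, Sec11c, a catalytic subunit, was at 22.1, 20.3 and 18.1 CPM in the metformin group, against 34.8, 39.2 and 15.7 CPM in the control group (log2 fold change -0.57, SE 0.32, edgeR adjusted p = 0.737). Control 3 was the lowest library and the other controls the highest. Without control 3 the log2 fold change of Sec11c was -0.87 (SE 0.15), past the criteria of the study (unadjusted p = 0.000986, edgeR adjusted p = 0.0889), whereas without control 2 it was -0.33, and with control 3 as the only control 0.36. Spcs2, an accessory subunit, had a log2 fold change of -0.20 (SE 0.18) in counts and -0.57 (SE 0.21) in log2(FPKM + 1), where limma gave an unadjusted p of 0.0284 and an adjusted p of 0.776. The next largest gap between these estimates was 0.12, in Ern1. Spcs2 was at 30.8, 33.8 and 29.9 FPKM in the metformin group, against 37.5, 65.0 and 43.6 FPKM in the control group, without overlap. Spcs1, of which 16.3% of the exonic bases are shared with Glt8d1, was at 73.2, 71.0 and 64.8 CPM in the metformin group, against 67.1, 68.5 and 69.8 CPM in the control group, the smallest SE of any member (log2 fold change 0.02, SE 0.13).

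The COPII coat buds vesicles from the ER. Sec23b, an inner coat subunit, was at 31.0, 26.7 and 34.3 CPM in the metformin group, against 40.2, 42.2 and 35.9 CPM in the control group, without overlap (log2 fold change -0.36, SE 0.15, unadjusted p = 0.0489, edgeR adjusted p = 0.661). It was no longer under an unadjusted p of 0.05 without control 1, control 2, metformin-treated mouse 1 or metformin-treated mouse 2. Its log2 fold changes were then -0.35, -0.31, -0.40 and -0.27. The unadjusted p was also above 0.05 with DESeq2 (0.0522) and with limma on log2(FPKM + 1) (0.0593). With edgeR it was 0.0597 under upper quartile normalization, 0.0598 without a low count filter and 0.101 with a replicate block. With limma-voom it was 0.0491. Sec24d, a cargo-binding subunit, was at 28.9, 20.0 and 39.1 CPM in the metformin group, against 36.4, 44.4 and 39.8 CPM in the control group (log2 fold change -0.46, SE 0.24). Metformin-treated mouse 3 was within the control range and the other metformin-treated mice were below it. Without that mouse the log2 fold change of Sec24d was -0.72 (unadjusted p = 0.0159, edgeR adjusted p = 0.666), whereas without metformin-treated mouse 2 it was -0.24 (edgeR adjusted p = 0.961). Sec13, of the outer coat, had a log2 fold change of 0.02 (SE 0.17). It was at 69.7, 62.5 and 74.4 CPM in the metformin group, against 76.2, 72.5 and 54.7 CPM in the control group, lowest in control 3.

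Leaving out control 3 altered the directions and the count of members called. Without it, 35 members were lower and 6 higher, with a median log2 fold change of -0.27. At an unadjusted p under 0.05 there were then 8 members, all lower, which were Sdf2l1, Creld2, Xbp1, Sec61a1, Ssr2, Sec11c, Sec23b and Creb3l1, with 2 past the criteria of the study and 0 at an adjusted p under 0.05. Of all features tested without control 3, 6.53% were lower and 3.93% higher at an unadjusted p under 0.05, and 96 had an adjusted p under 0.05. With control 3 as the only control, a fit whose spread comes from the metformin-treated mice alone, 20 members were lower and 21 higher, with a median log2 fold change of 0.00. The 3 members under an unadjusted p of 0.05 there, all higher, were Sec61b, Sec61g and Ssr4, where 6.46% of all features were higher, a share near that of the members. All 15 chaperones were lower without control 3, and 10 of 15 with it as the only control.

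Levels moved with transcript length, in control 3 and in the comparison of the groups. Among protein-coding genes with mRNAs of up to 1000 bases, the median log2 ratio of control 3 to the mean of control mice 1 and 2 was -0.46 over 1188 genes, and above 4000 bases it was 0.17 over 3664 genes. Control 3 was the lowest library for 10 members, whose median mRNA length was 1096 bases, against 2399 bases for the other 31. Among them were Sec61b, with 564 bases, Sec61g, with 754, Ssr4, with 782.5, and Sec11c, with 821. Edem2, with 2290 bases, Derl1, with 3175, and Syvn1, with 3261, were among them too. For Sec61b, Sec61g, Ssr4 and Sec11c the same log2 ratio was -1.47, -1.47, -1.12 and -1.23, lower than the -0.46 of short genes. Spcs1, with 949 bases, had a ratio of 0.04, and Creb3l1, with 2603 bases, one of -1.28. Over the same protein-coding genes, the median log2 fold change of metformin over control was 0.24 up to 1000 bases and 0.13 between 1000 and 2000. It was -0.01 between 2000 and 4000 and -0.12 above 4000 bases. These values include control 3. Against the mean of control mice 1 and 2 alone, the median log2 ratios of the metformin mean were 0.12, 0.07, 0.01 and -0.04 in the same order. The part of transcript length in the members' values was not tested.

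Markers of secretory and other cell types also differed between the libraries. Beside the milk genes given above, of which Wap was at 0 counts in control 3 and metformin-treated mouse 3, Glycam1 at 0 in control 3 and Csn1s2b at 0 in the 3 metformin libraries, 8 plasma cell markers summed to 148, 73.0 and 273 CPM in metformin-treated mice 1, 2 and 3 and to 633, 1285 and 135 CPM in control mice 1, 2 and 3. Plasma cell and milk sums were thus high in control mice 1 and 2 alone, as were Xbp1, Creld2, Sdf2l1, Creb3l1 and Sec11c. Canx, Atf6, Dnajc3, Edem1, Sel1l and Pdia4 were highest in control 3, which had few transcripts of either list. All but Pdia4 have mRNAs of 4030 to 7246 bases. Their log2 ratios of control 3 to the other controls were 0.13 to 0.27, beside 0.17 for all genes above 4000 bases. Pdia4 has 2399 bases and a ratio of 0.26, beside -0.01 for all genes between 2000 and 4000 bases. The sum of 10 epithelial markers was 995, 644 and 788 CPM in the metformin group, against 898, 1688 and 959 CPM in the control group, so control 2, the highest library for most members, was also the highest for epithelium. The sum of 6 skeletal muscle genes was 11067, 22426 and 15909 CPM in the metformin group, against 13893, 12725 and 13785 CPM in the control group, and it was highest in metformin-treated mouse 2, the lowest library for most members. The sum of 9 adipocyte markers was 15649 to 21671 CPM in metformin-treated mice and 12623 to 15417 CPM in control mice, without overlap. The sum of 9 fibroblast markers was 4243, 2367 and 4881 CPM in the metformin group, against 2409, 2300 and 5183 CPM in the control group, highest in control 3. The sum of 7 macrophage markers was 394, 237 and 693 CPM in the metformin group, against 363, 357 and 527 CPM in the control group, lowest in metformin-treated mouse 2. The 5 endothelial markers summed to between 511 and 659 CPM in the metformin group and between 503 and 677 CPM in the control group. At an unadjusted edgeR p under 0.05 there were 6 of the 6 tested milk genes, 1 of 8 plasma cell markers and 2 of 10 epithelial markers, all lower, 1 of 9 adipocyte markers, higher, and 0 of the fibroblast, macrophage, endothelial and muscle markers. Of all features, 4.85% were lower and 2.68% higher there. The part of these cell types in the members' levels was not tested.

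**Figure D5:**
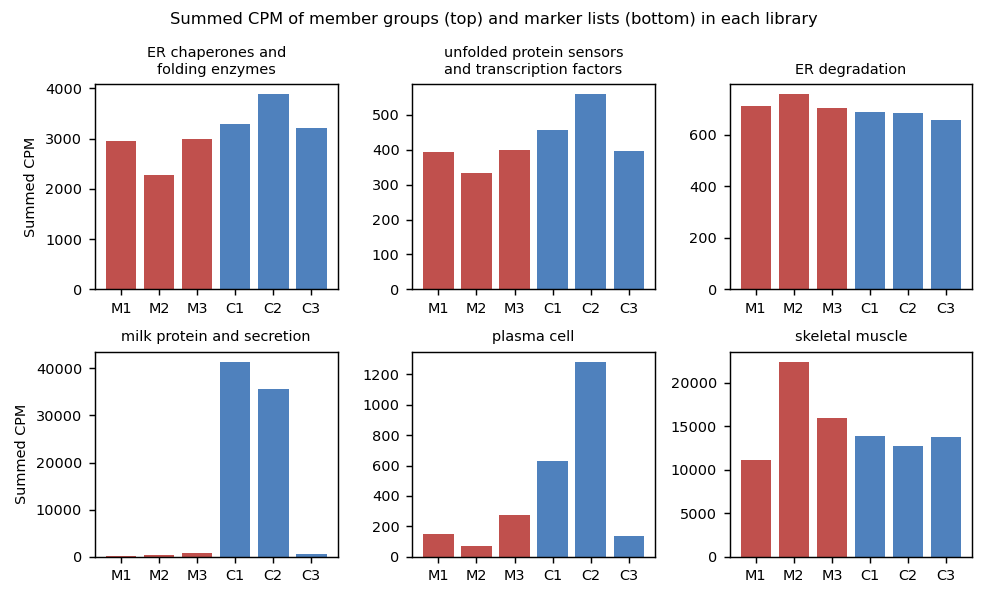
Summed CPM in each library of 3 groups of members (top) and 3 marker lists (bottom), with metformin-treated mice M1 to M3 in red and control mice C1 to C3 in blue. The chaperone sum is at most 2999 in the metformin libraries and at least 3209 in the control libraries, while the milk and plasma cell sums are high in C1 and C2 alone.

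The wider secretory pathway was read in 104 further genes in 7 lists, all found in the counts, of which 103 were tested and Clgn was not. Of the 103, 58 were lower and 45 higher, with a median log2 fold change of -0.03, and 7 lower and 1 higher had an unadjusted edgeR p under 0.05, with 0 at an adjusted p under 0.05. Over all features 4.85% were lower and 2.68% higher at that threshold. Of the 103, 17 that were lower and 4 that were higher had no overlap between the groups, beside 7.01% and 6.24% of all features. Creld1, a relative of Creld2, was the 1 gene past the criteria of the study, at 100.1, 81.4 and 79.7 CPM in the metformin group, against 54.7, 59.3 and 52.1 CPM in the control group (log2 fold change 0.65, SE 0.16, edgeR adjusted p = 0.539, DESeq2 adjusted p = 0.029). It thus differed in sign from Creld2.

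Near the translocon, Tram1, a membrane protein that assists translocation, was at 88.9, 70.7 and 85.0 CPM in the metformin group, against 113, 139 and 113 CPM in the control group (log2 fold change -0.58, SE 0.17, edgeR adjusted p = 0.541). Sec63, which recruits HSPA5 to the channel, was at 79.0, 69.1 and 75.5 CPM in the metformin group, against 91.4, 91.1 and 105 CPM in the control group (log2 fold change -0.36, SE 0.15). Neither gene overlapped between the groups, and control 3 lay with the other controls, unlike in Sec61b and Sec61g. In the degradation list, Edem3 and Sel1l3 had log2 fold changes of -0.42 (SE 0.17) and -0.78 (SE 0.27). Derl3, which is also a plasma cell marker, was at 1.33, 0.794 and 2.13 CPM in the metformin group, against 4.11, 13.2 and 0.733 CPM in the control group. Of the regulators, Creb3l4 had a log2 fold change of -1.03 (SE 0.42) at 29 to 48 counts per metformin library, and Atf4, which is translated when PERK is active, one of 0.27 (SE 0.20).

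Of the other genes with the smallest p in each list, Dnajc1, another co-chaperone, and Ero1b, an oxidase for disulfide bonds, had log2 fold changes of -0.35 (SE 0.15) and -0.45 (SE 0.20). In the oligosaccharyltransferase, which adds N-glycans, Ostc, Magt1 and Stt3a were between -0.31 and -0.26, and 0 of the 10 genes had an unadjusted p under 0.05. Srp54a, of the signal recognition particle, was at -0.40. Among the COPII and cargo receptor genes, Sec16b, which marks ER exit sites, was at -0.68 (SE 0.24), and Lman1 and Mia3 were at -0.27 and -0.17. In the COPI coat, which returns proteins to the ER, Copb1 and Copb2 were at -0.29 and -0.31 and Copz2 at 0.30. Ppp1r15b, a phosphatase subunit that acts on eIF2α, was at 0.22.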

How the data were processed

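RNA of 6 whole glands was sequenced as paired-end oligo(dT) libraries. The authors deposited whole-number counts per gene and, for the same genes, FPKM values, a unit that accounts for library size and transcript length. These were not the deposited counts scaled by library size and a fixed length per gene. For Spcs2, control 2 and metformin-treated mouse 1 had 118 and 93.3 CPM, and 65.0 and 30.8 FPKM. For Hsp90b1 the same mice had 568 and 447 CPM, and 195 and 144 FPKM. How the FPKM values were derived was not tested. Adapters and low-quality reads had been removed and reads mapped to GRCm38, with HISAT2 and StringTie listed in the submitters' processing notes. For their versions, the counting tool, the annotation release and the strand setting, the sources used here give nothing. Without strand, reads of overlapping genes cannot be told apart.

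Counts were filtered (filterByExpr), TMM-normalized and tested with the edgeR 4.0.16 quasi-likelihood test in R 4.3.3, with Benjamini-Hochberg adjustment over all 15925 features. The SE was the size of the log2 fold change over the square root of F, an approximation. DESeq2 1.42.0, limma 3.58.1 (voom, and log2(FPKM + 1) and log2(FPKM + 0.1)), other normalizations and filters, a replicate block and leaving out each mouse were alternatives. The pipeline was tested on simulated data. Genes named by rule were Hspa5, Xbp1, Atf6, Ern1 and Eif2ak3, the 12 members with the smallest p (as under 8 had p under 0.05) and those without overlap, 15 in all, and of each pathway list the 3 with the smallest p. Other members named with values were chosen after their values were seen. Members and lists were chosen with earlier results of these data known. Nothing further tied the mice to cages or days. The p-values set the group difference against the spread between these mice, and a cage or day aligned with group could not be told apart from it. Positions are from GENCODE vM21 and promoters from RefSeq (GRCm38.p6). There were 0 unused columns of per-sample values.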

Additional observations from a re-analysis of the deposited data

How the results depend on the processing

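In the alternatives run, 0 members had an adjusted p under 0.05. The count of members lower at an unadjusted p under 0.05, 1 with edgeR, was 3 with DESeq2 and 0 with upper quartile normalization. Leaving out 1 mouse gave 0 to 8 such members (8 without control 3, 4 without metformin-treated mouse 3 and 0 without any other), 0 to 2 past the criteria of the study (2 without control 3), and a median log2 fold change of -0.28 to -0.15. With control 3 as the only control, chosen after seeing the data and with the spread of the metformin-treated mice alone, 0 members were lower and 3 higher at p under 0.05, 2 were past the criteria of the study, and the median was 0.0021. Creb3l1, Sec11c, Creld2, Sdf2l1 and Xbp1 then had positive log2 fold changes. With the replicate number as a replicate block, 0 members were lower at that threshold and the log2 fold change of Sec23b was -0.37. Deviations of same-numbered mice correlated at -0.41, -0.18 and 0.04. These few values gave no sign that the numbers pair the mice, but they cannot exclude it. Spcs2 was under p of 0.05 only in the FPKM fits, and the cause was not tested. Creb3l1 was also under p of 0.05 with no filter on low counts, where Sec23b was not.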
